A study of Mus musculus with 18 samples.

Results

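The HOX cluster genes of the mouse were followed through a cardiac differentiation of embryonic stem cells. Members were all gene symbols of the deposited count table made of Hox, a cluster letter from a to d and a paralogue number. This gave 39 of the 23337 genes in the table, of which 32 were among the 14892 genes that passed the expression filter. The cells were the GLI1-FTA line on the A2Lox.cre background, in which doxycycline induces GLI1, the transcription factor that carries Hedgehog signals into the nucleus. Controls of the same line were untreated and were collected at D5 (4 libraries), D6 (3), D8 (2) and D12 (2). GLI1 overexpression (OE) cells had received 500 ng/ml doxycycline for 24 h from D5 to D6, followed by a wash, and were collected at D6 (3 libraries), D8 (2) and D12 (2). No group received doxycycline without the inducible gene, so effects of the drug and of GLI1 cannot be told apart, and the labels name 1 line only. Whether replicates were separate cultures is not stated in the labels, and p-values therefore cover the spread among these libraries, which may be technical.

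HOX genes encode homeodomain transcription factors that give cells their position along the head-to-tail axis. In the embryo they are switched on in the order in which they lie on the chromosome, anterior paralogues first, and later and further back for higher paralogue numbers. Their proteins bind DNA together with TALE cofactors of the PBX, MEIS and PKNOX families, and retinoic acid, Wnt, FGF and CDX factors act upstream of them. In the mouse heart, Hoxb1 and Hoxa3 mark second heart field progenitors that contribute to the outflow tract and the atria.

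By the RefSeq annotation of GRCm38.p6, the 11 members of the HOXA cluster lie on chromosome 6, the 10 of HOXB on chromosome 11 (chr11:96194316-96368254), the 9 of HOXC on chromosome 15 (chr15:102921131-103036856) and the 9 of HOXD on chromosome 2 (chr2:74668225-74765142). HOXB, HOXC and HOXD span 174, 116 and 96.9 kb in that order. Members are grouped here as anterior (paralogues 1 to 3, 8 genes, all tested), central (paralogues 4 to 8, 15 genes, 12 tested) and posterior (paralogues 9 to 13, 16 genes, 12 tested). The 7 members below the filter were Hoxa4, Hoxa5, Hoxa6, Hoxb13, Hoxc11, Hoxc12 and Hoxc13. Hoxc12 had 0 counts in every library and Hoxb13 had 2 counts in all. In the same annotation 6 pairs of members overlap, Hoxa3 with Hoxa4, Hoxa5 and Hoxa6, Hoxb3 with Hoxb4, Hoxd3 with Hoxd4, and Hoxd10 with Hoxd11. How reads in such overlaps were counted is not given in the sources used here, so the split of counts within these pairs is uncertain.

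Start-site sequences from RefSeq (GRCm38.p6, 250 bases before to 50 after the start) were found for 22 of the 39 symbols, 24 windows in all. The 4 shown belong to genes named in the results below. Hoxb1 (chr11:96365508-96365807, plus strand) and Hoxb4 (chr11:96318017-96318316, plus strand) were lower in GLI1 OE cells at D6 in every pair of libraries of adjacent number. Those pairs were found in these data, and neither gene passed in the fit of all 18 libraries. Hoxd11 (chr2:74682073-74682372, plus strand) and Hoxd13 (chr2:74667975-74668274, plus strand) are posterior genes that rose with time. Capitals mark a PBX-HOX motif (TGATNNAT, either strand) in Hoxb1 and Hoxd11, and a nuclear receptor motif (AGGTCA, either strand; retinoic acid receptors bind repeats of it) in Hoxb4. The Hoxd13 window holds neither. RefSeq gives Hoxd11 2 windows, and the other, at the start of the annotated locus (chr2:74679308-74679607), holds no PBX-HOX motif.
Hoxb1: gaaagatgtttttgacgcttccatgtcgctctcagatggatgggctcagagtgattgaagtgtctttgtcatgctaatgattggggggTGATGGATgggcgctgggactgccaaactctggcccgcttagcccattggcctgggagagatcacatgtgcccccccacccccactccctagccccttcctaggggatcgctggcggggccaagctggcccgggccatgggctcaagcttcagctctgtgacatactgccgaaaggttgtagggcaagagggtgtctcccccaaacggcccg
Hoxb4: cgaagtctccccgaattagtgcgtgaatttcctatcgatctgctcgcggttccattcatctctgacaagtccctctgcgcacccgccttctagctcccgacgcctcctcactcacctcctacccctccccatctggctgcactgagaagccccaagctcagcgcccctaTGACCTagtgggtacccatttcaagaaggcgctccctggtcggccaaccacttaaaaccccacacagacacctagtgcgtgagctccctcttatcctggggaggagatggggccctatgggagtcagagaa
Hoxd11: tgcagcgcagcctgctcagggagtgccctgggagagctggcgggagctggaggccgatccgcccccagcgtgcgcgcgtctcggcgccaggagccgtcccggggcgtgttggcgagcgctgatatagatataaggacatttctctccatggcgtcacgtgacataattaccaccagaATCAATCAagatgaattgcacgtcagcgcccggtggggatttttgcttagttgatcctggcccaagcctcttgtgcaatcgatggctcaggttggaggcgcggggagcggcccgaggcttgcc
Hoxd13: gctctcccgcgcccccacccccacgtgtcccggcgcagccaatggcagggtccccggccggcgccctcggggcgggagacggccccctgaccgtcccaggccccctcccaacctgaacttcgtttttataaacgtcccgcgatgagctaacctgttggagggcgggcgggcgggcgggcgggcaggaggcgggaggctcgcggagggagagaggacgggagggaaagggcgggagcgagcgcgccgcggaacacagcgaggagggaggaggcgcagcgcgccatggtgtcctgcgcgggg

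The PBX-HOX motif begins 162 bases before the Hoxb1 start and 73 bases before the Hoxd11 start shown, and the nuclear receptor motif begins 81 bases before the Hoxb4 start. The PBX-HOX letters occurred in 4 of the 24 HOX windows (16.7%), against 8.85% of 32851 mouse windows of the same length. The nuclear receptor motif occurred in 7 HOX windows (29.2%), against 16.3% of all windows, and the CDX motif TTTATG in 5 (20.8%), against 11.9%. The GLI motif GACCACCCA occurred in 0 of 24 windows, against 0.253% of all windows, which says only that these letters are not in these windows. Matches were counted on both strands, motifs may overlap by their end letters, and a match is a description of letters, not a site of binding.

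Libraries held 18470785 to 26184339 counts, and the HOX members together made up 34.9 to 173 CPM (counts scaled by library size, so that levels can be compared between libraries) per library, with 21 to 37 members detected. Gli1 followed the labels: it stood at 785 to 1050 CPM in D6 GLI1 OE libraries against 6.84 to 21.4 CPM in D6 controls. After the wash it was 0.925 to 1.45 CPM in D8 GLI1 OE against 0.752 to 1.18 CPM in D8 controls, and 0.795 to 1.12 CPM in D12 GLI1 OE against 0.808 to 0.902 CPM in D12 controls. All 9 cardiomyocyte markers examined were detected in every group. Their summed level was 1019 to 3561 CPM at D5, and 4362 to 10140 CPM in the D12 controls. D5 control library 3 stood apart for the HOX genes, as given below, and comparisons with D5 are given with and without it. D5 libraries 1 and 2 differed least of any 2 libraries of a group, so p-values against D5 may be too small. In bulk RNA, fewer cells of a type and less RNA per cell cannot be told apart.

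At D5, before the pulse, the HOX code of the cells was anterior. Levels can be compared between genes only per length, which the authors' TPM values for the D5 controls allow. Hoxb2 had 30.4, 29.9, 69.1 and 67.0 TPM in D5 replicates 1 to 4, and Hoxb3 had 25.0, 26.6, 44.0 and 43.5 TPM. In TPM both genes were higher in replicates 3 and 4 than in replicates 1 and 2. The deposited counts differ for Hoxb3, with 11.01, 11.9, 19.7 and 8.36 CPM in D5 libraries 1 to 4.

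Hoxb1, which patterns the hindbrain and the second heart field, varied most among the abundant members, with 2.06, 1.93, 19.7 and 48.9 TPM. Mean levels were 49.1 TPM for Hoxb2, 34.8 for Hoxb3 and 18.1 for Hoxb1, and the ranges of neighbours in this order overlap. In all, 4 members averaged 10 TPM or more, all of them anterior. Hoxb4 averaged 3.69 ± 2.83 TPM (SD, n = 4), 14 members averaged 1 TPM or more, and 8 were listed at 0 in all 4 replicates (Hoxa6, Hoxa7, Hoxa9, Hoxb13, Hoxc11, Hoxc12, Hoxd11 and Hoxd12).

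**Figure D1:**
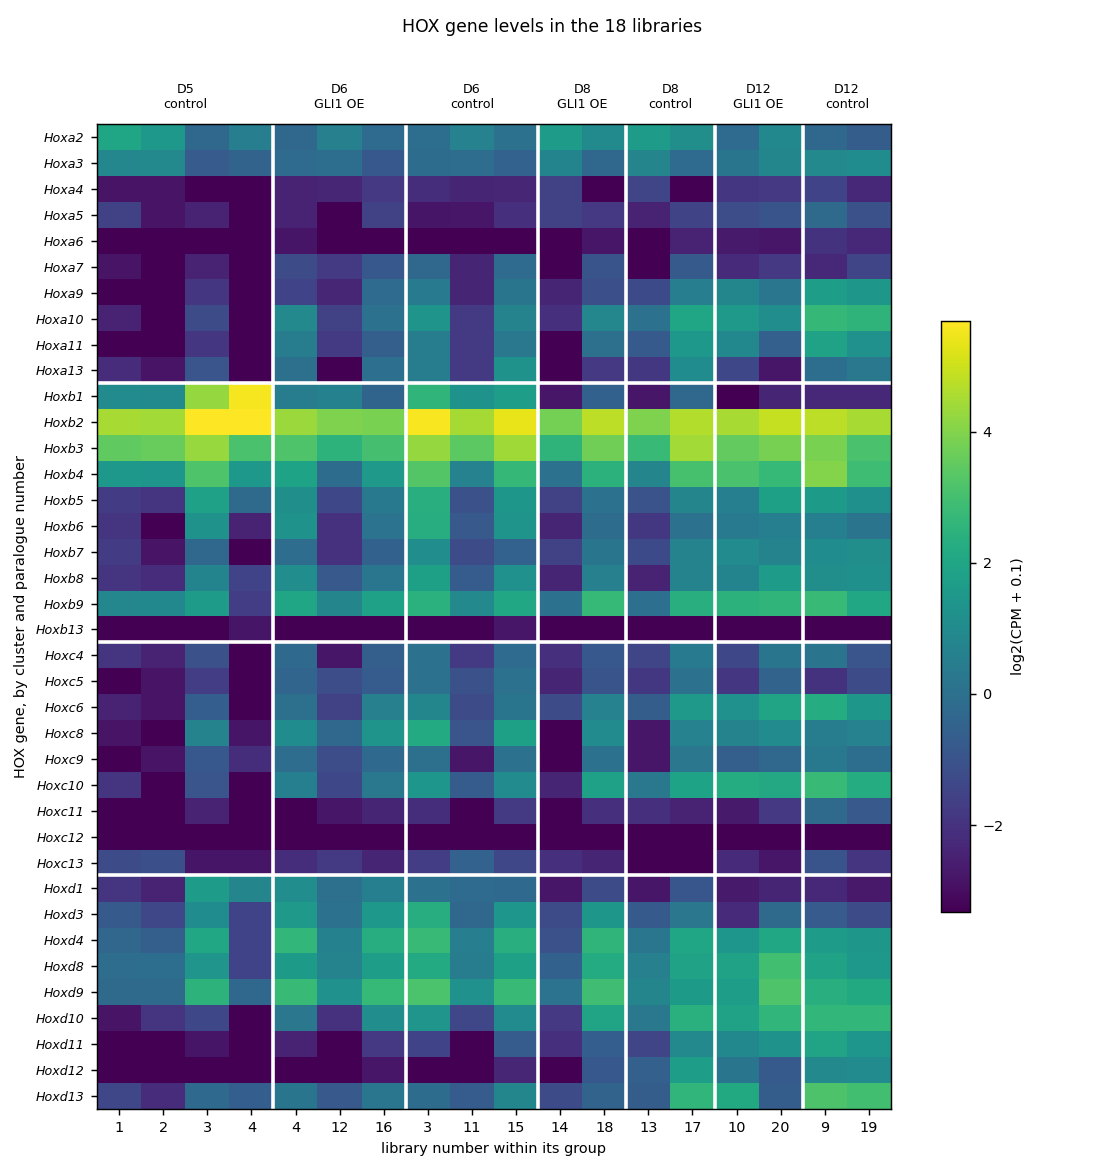
Levels of HOX genes (rows, by cluster and paralogue number) in the 18 libraries (columns, numbered within their group), as log2(CPM + 0.1). The top rows of HOXB are bright from D5, the lower rows of each cluster are bright at D12, and D5 library 3 stands out among the D5 controls.

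With time the summed anterior HOX level of untreated cells fell and the summed posterior level rose, though not every gene of a band moved. Anterior members summed to 38.5 to 51.5 CPM in D12 controls against 63.4 to 139.8 CPM in D5 controls. Posterior members summed to 44.3 to 55.3 CPM against 1.69 to 11.7 CPM. Of the 32 tested members, 14 passed the test between D12 and D5 controls (43.8%, against 66.5% of all genes), of which 10 rose (31.2%, against 32.2% of all genes) and 4 fell (12.5%, against 34.3%). The share that passed is below that of all genes. All 4 that fell are anterior, and all 10 that rose are central or posterior. Genes near 0 at D5 pass the filter only through later groups and cannot be called as falling. Hoxd12, Hoxd11, Hoxa9 and Hoxa11 summed to 0, 1, 4 and 4 counts in D5 controls.

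Among the anterior genes, Hoxb1 had 0.101 and 0.106 CPM in D12 controls against 1.96, 1.81, 18.9 and 47.3 CPM in D5 controls. Every D12 library was below every D5 library, and the log2 fold change was -7.32 ± 1.78 (SE, edgeR adjusted p = 0.00245).

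Hoxa2, a regulator of the second pharyngeal arch, had 0.707 and 0.530 CPM in D12 controls against 3.95, 2.66, 0.705 and 1.35 CPM in D5 controls. The groups overlapped through D5 library 3, and the log2 fold change was -1.80 ± 0.65 (SE, edgeR adjusted p = 0.0243). Hoxd1 summed to 3 counts in D12 controls and 116 in D5 controls, which is a ratio of 0.0654 (exact 95% limits 0.0133 and 0.196, for counting error only, and edgeR adjusted p = 0.0299). The 2 most abundant members did not pass. Hoxb2 had 27.8 and 22.4 CPM in D12 controls against 22.5, 21.4, 51.3 and 50.2 CPM in D5 controls (log2 fold change -0.53 ± 0.42 SE, edgeR adjusted p = 0.281), and Hoxb3 had 14.4 and 8.49 CPM against 11.01, 11.9, 19.7 and 8.36 CPM (log2 fold change -0.15 ± 0.48 SE, edgeR adjusted p = 0.796).

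The central genes were intermediate. Hoxb4, the most abundant of them, had 16.1 and 7.27 CPM in D12 controls against 2.67, 2.58, 9.20 and 2.66 CPM in D5 controls, and the groups overlapped through D5 library 3 (log2 fold change 1.45 ± 0.84 SE, edgeR adjusted p = 0.142). Hoxc6 had 4.65 and 2.60 CPM in D12 controls against 0.0798, 0.0403, 0.539 and 0 CPM in D5 controls, with no overlap (log2 fold change 4.42 ± 1.04 SE, edgeR adjusted p = 0.00184). Hoxb7 had 1.97 and 2.07 CPM in D12 controls against 0.200, 0.0403, 0.705 and 0 CPM in D5 controls (log2 fold change 3.07 ± 1.04 SE, edgeR adjusted p = 0.0178). Hoxb7 and Hoxc6 were the only central members that passed. Hoxd4 (log2 fold change 1.06 ± 1.06 SE), Hoxd8 (1.50 ± 0.79 SE) and Hoxc8 (1.78 ± 1.48 SE) had estimates above 0 with edgeR adjusted p of 0.387, 0.108 and 0.304.

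The posterior genes, which pattern trunk, limb and tail, made up 8 of the 10 that rose. Hoxa10 had 6.37 and 5.73 CPM in D12 controls against 0.0798, 0, 0.332 and 0 CPM in D5 controls (log2 fold change 5.81 ± 1.19 SE, edgeR adjusted p = 0.000665). Hoxc10 had 6.67 and 4.67 CPM against 0.160, 0, 0.415 and 0 CPM (log2 fold change 5.25 ± 1.16 SE, edgeR adjusted p = 0.00117). Hoxd13, the last gene of HOXD and a regulator of digits, had 8.84 and 7.64 CPM in D12 controls against 0.279, 0.121, 0.746 and 0.549 CPM in D5 controls (log2 fold change 4.27 ± 0.88 SE, edgeR adjusted p = 0.000699). In all 3 genes the lowest D12 library exceeded the highest D5 library.

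Hoxa9, Hoxa11 and Hoxd10 rose by log2 fold changes of 5.97 ± 1.14, 5.96 ± 1.34 and 5.58 ± 1.20 (SE). Hoxd11 summed to 122 counts in D12 controls against 1 in D5 controls, which is a ratio of 308 (exact 95% limits 54.3 and 12300, edgeR adjusted p = 7.01e-05). Hoxd12 summed to 71 counts against 0, which makes it at least 59.8-fold higher when D5 is set to 3 counts over all its libraries (edgeR adjusted p = 0.000458). Hoxb9 and Hoxd9, both abundant posterior genes, did not pass. Hoxb9 had 6.72 and 4.03 CPM in D12 controls against 1.72, 1.73, 3.07 and 0.211 CPM in D5 controls, without overlap (log2 fold change 1.67 ± 0.83 SE, edgeR adjusted p = 0.0911). Hoxd9 had 5.05 and 4.30 CPM in D12 controls against 0.758, 0.766, 5.51 and 0.718 CPM in D5 controls. D5 library 3 exceeded both D12 libraries in Hoxd9 (log2 fold change 1.27 ± 0.91 SE, edgeR adjusted p = 0.231).

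**Figure D2:**
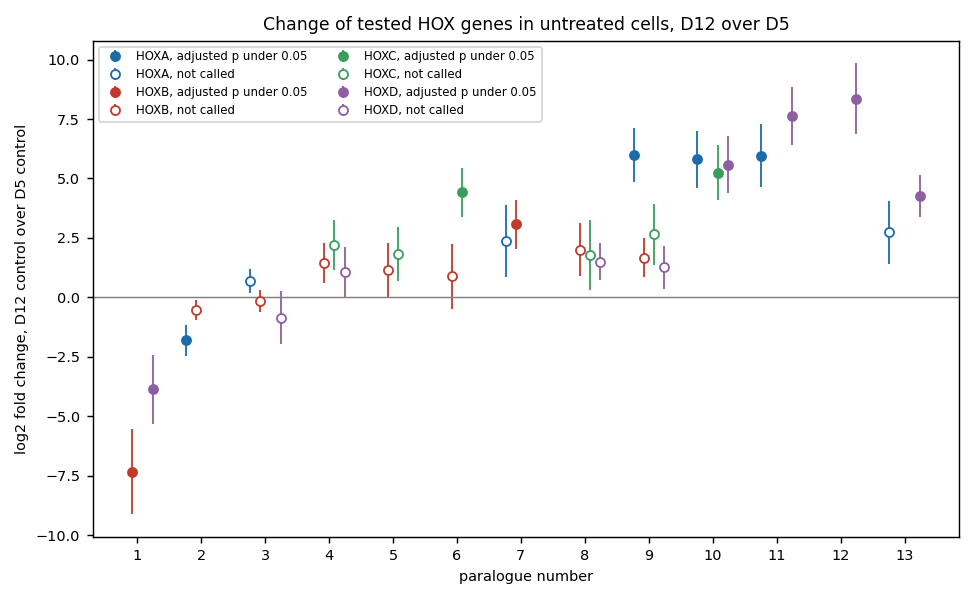
Log2 fold change of D12 over D5 controls (vertical axis) by paralogue number (horizontal axis) for tested HOX genes, coloured by cluster and filled where the edgeR adjusted p was under 0.05. Bars are approximate standard errors worked back from the F test. Medians over the tested members were -1.33 for anterior, 1.81 for central and 5.41 for posterior genes, and the fitted values of Hoxd11 and Hoxd12 depend on the prior count because D5 held 1 and 0 counts.

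All 24 estimates for the central and posterior genes that passed the filter were above 0, and 7 of the 8 anterior ones were below 0, the exception being Hoxa3 at 0.69 ± 0.52 (SE). The rank correlation of the log2 fold change with paralogue number was 0.86 across the 32 genes, a description only since neighbours in a cluster share control regions and all genes share libraries. The median over the 32 members was 1.81, against -0.04 over all tested genes. The filter favours low genes that rise, so this median, the signs and rank correlation describe the members that passed and not the whole clusters. Leaving out D5 library 3 raised the number of members that passed to 25 (22 higher and 3 lower), while leaving out any other single library gave 11 to 14. Hoxa2 did not pass without D5 library 1, without either D12 library, with limma-voom or with only the 2 groups fitted, Hoxd1 did not pass without D5 library 3 or in the same other fits, Hoxb7 did not pass without either D12 library, and Hoxb1 did not pass with limma-voom.

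Markers of other cell types moved between the same groups. Their counts are read against the 66.5% of all genes that passed (32.2% higher and 34.3% lower). Paraxial mesoderm markers summed to 18.09 to 20.3 CPM in D12 controls against 1.435 to 4.43 CPM in D5 controls, and the 4 tested (Tbx6, Meox1, Meox2 and Tcf15) all rose. Endothelial markers summed to 523.7 to 699 CPM against 77.4 to 337 CPM, and 7 of 8 rose. Limb and mesenchyme markers summed to 5129 to 7014 CPM against 1455 to 5354 CPM, and of 10 tested 5 rose, among them Tbx4 (log2 fold change 4.32 ± 0.98 SE) and Col1a1 (4.51 ± 0.67 SE), and 1 fell, Prrx2. Of 9 cardiomyocyte markers 5 rose, of 9 blood markers 1 rose and 4 fell, of 9 endoderm markers 2 rose and 3 fell, and of 5 neural and 4 pluripotency markers 3 and 1 fell. Sox17, which rose, is counted in both the endothelial and the endoderm list. Msgn1, Pax1 and Myf5 were at 0 in all D5 controls, and Myf5 and Myod1 in all D12 controls. The part of these cell types in the HOX change was not tested.

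The change was not spread evenly over the days. Between D6 and D5 controls, 7 members rose and 0 fell (21.9%, against 18.4% of all genes, 8.39% higher and 9.99% lower), namely Hoxa7, Hoxa9, Hoxa10, Hoxa11, Hoxc5, Hoxc10 and Hoxd10. Hoxa10 had 2.42, 0.186 and 1.54 CPM in D6 control libraries 3, 11 and 15 against at most 0.332 CPM at D5, and library 11 overlapped the D5 range. This count depended on single libraries. It was 15 without D5 library 3, 2 without D5 library 4, 1 without D5 library 1 or 2, 0 without D6 control library 3 or 15, and 8 without D6 control library 11.

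Between D8 and D6 controls, 2 members passed, 1 higher and 1 lower (6.25%, against 34.8% of all genes). Hoxd12, which rose, summed to 86 counts in D8 controls against 2 in D6 controls, which is a ratio of 62.7 (exact 95% limits 16.8 and 526, edgeR adjusted p = 0.00662), and without D8 control library 17 it did not pass. Between D12 and D8 controls Hoxa2 alone passed (3.12%, against 36.3% of all genes), and it fell by 2.04 ± 0.71 on the log2 scale (SE, edgeR adjusted p = 0.0362). No member passed in that comparison without D8 control library 13 or without D12 control library 9.

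Lists of genes that act with or upstream of HOX proteins are read against the 66.5% of all genes that passed between D12 and D5 controls (32.2% higher and 34.3% lower). Of 9 TALE cofactors tested, 6 rose and 2 fell, with Pbx3 at a log2 fold change of 1.36 ± 0.12, Pknox1 at 0.83 ± 0.12 and Meis1 at -0.85 ± 0.21 (SE). Of 16 tested genes of retinoic acid, Wnt, FGF and CDX control, 6 rose and 5 fell. The retinaldehyde reductase gene Dhrs3 rose by 4.78 ± 0.25 (SE, edgeR adjusted p = 2.58e-09), the receptor gene Rara rose by 1.35 ± 0.14, and the retinoic acid binding protein gene Crabp1 fell by 3.36 ± 0.58 on the same log2 scale. Of 19 Polycomb genes, whose products keep HOX clusters silent, 9 rose and 6 fell, with Cbx6 at 1.70 ± 0.10 and Ezh1 at 2.11 ± 0.17 (SE).

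Trithorax and H3K27 demethylase genes gave 2 higher and 4 lower of 11 tested. Of 10 non-coding transcripts of the clusters, 3 were tested and 1 rose, Hoxa11as, which had 4.50 and 4.08 CPM in D12 controls against 0, 0, 0.0415 and 0.0422 CPM in D5 controls. It lies opposite Hoxa11, and since the use of strand in counting is not given in the sources used here, reads of the pair cannot be told apart. Of 14 tested genes that flank the clusters, 3 rose and 7 fell, with a median log2 fold change of -0.41. Evx1 was the 1 tested gene of the ParaHox and Evx list and did not pass (log2 fold change -0.87 ± 1.32 SE, edgeR adjusted p = 0.576).

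At D5, D6 and D8, most central and posterior HOX genes were high or low in the same libraries of a group. Summed posterior levels in D8 controls were 8.14 CPM in library 13 and 38.9 CPM in library 17, and in D8 GLI1 OE they were 3.01 CPM in library 14 and 27.02 CPM in library 18. The highest library exceeded the lowest 4.78-fold among D8 controls and 8.98-fold among D8 GLI1 OE libraries. At D12 the same ratio was 1.07 in GLI1 OE and 1.25 in controls, but single genes of the GLI1 OE libraries 10 and 20 moved in opposite directions within that sum. Hoxd13 had 4.32 and 0.536 CPM in them, and Hoxd9 had 3.12 and 9.12 CPM.

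The same libraries were low for most members. D6 GLI1 OE library 12 was the lowest of its group for 26 of the 32 tested members (37.3% of all genes) and D6 control library 11 for 27 (37.7%). D8 GLI1 OE library 14 was the lower of its group for 29 members (51.3% of all genes) and D8 control library 13 for 30 (49.2%). In both D8 groups Hoxa2 and Hoxa3 were among the exceptions. D5 control library 3 was the highest of its 4 for 28 members (28.8% of all genes).

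Cdx2, a homeobox activator of central and posterior HOX genes, had 12.9, 3.42 and 14.01 CPM in D6 GLI1 OE libraries 4, 12 and 16, against 19.3, 2.19 and 18.2 CPM in D6 control libraries 3, 11 and 15. At D5 it had 0.239, 0.363, 9.62 and 2.28 CPM in libraries 1 to 4, and at D8 it had 1.43 and 6.45 CPM in GLI1 OE libraries 14 and 18 against 4.95 and 21.4 CPM in control libraries 13 and 17. Cdx2 was lowest in the D6 libraries in which most HOX genes were lowest, and highest in D5 library 3. Of the 2 libraries in each D8 group it was lower in the one in which most HOX genes were lower. Evx1, which lies beside HOXA and marks the primitive streak and tail bud, had 9.12 CPM in D5 library 3 and 0.464 to 0.678 CPM in the other D5 libraries. Both genes were named after their values were seen, and their part in the HOX levels was not tested.

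Cardiomyocyte markers went the other way. Their summed level was 2698 CPM in D6 GLI1 OE library 12 against 822 and 834 CPM in libraries 4 and 16, and 6919 CPM in D6 control library 11 against 2571 and 4241 CPM in libraries 3 and 15. The D8 sums were 10030 CPM in GLI1 OE library 14 against 782 CPM in library 18, and 11990 CPM in control library 13 against 4750 CPM in library 17. D5 library 3 had the lowest sum of the D5 controls, 1019 CPM, and 230 CPM of blood markers, against 3.83 to 33.9 CPM in the other 3. The part of these cell types in the HOX levels was not tested.

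**Figure D3:**
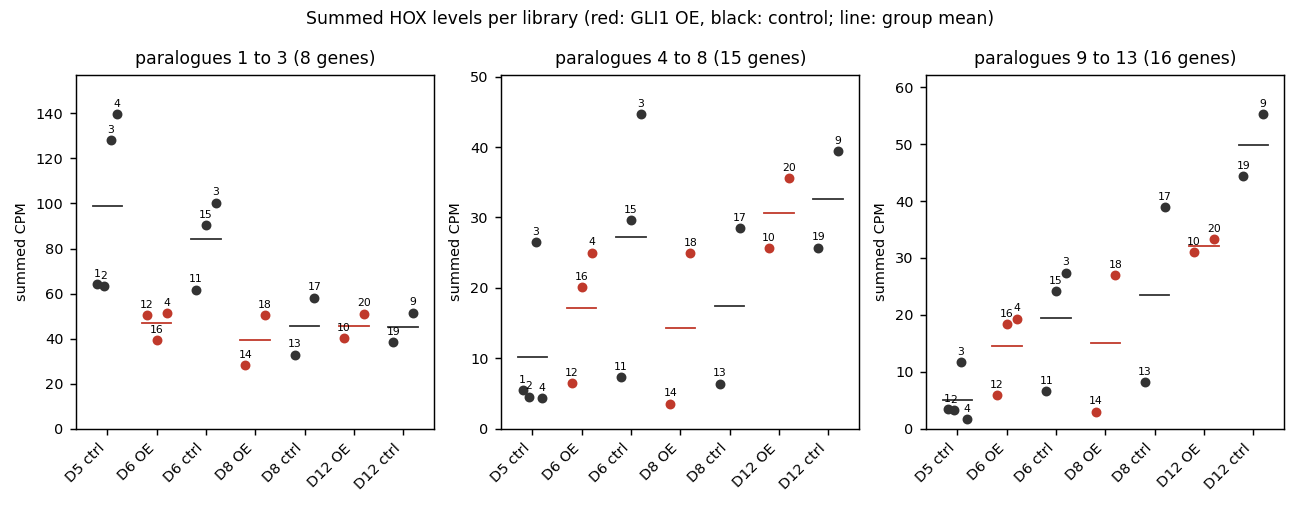
Summed CPM of anterior, central and posterior HOX genes in each library (points, numbered), with the group mean as a line, GLI1 OE in red and control in black. Central and posterior sums differ 3.29- to 8.98-fold between libraries of 1 group at D5, D6 and D8, and 1.07- to 1.53-fold at D12.

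The D6 comparison asked which HOX genes differ while GLI1 is induced. No member passed the test in the fit of all 18 libraries (0 of 32, against 4.14% of all genes, 3.02% higher and 1.12% lower). An unadjusted p under 0.05 was reached by 2 members, and DESeq2 and limma-voom also called 0. Estimates were below 0 for 30 of the 32 tested members, with a median of -0.54 against -0.02 over all genes. Hoxc9 (0.02 ± 1.16 SE) and Hoxd1 (0.80 ± 0.95 SE) were above 0.

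Within the clusters, the 9 tested HOXB members had the lowest median, -1.14, and all were below 0. Medians were -0.42 for HOXA, -0.53 for HOXC and -0.27 for HOXD. Hoxb2 had 20.01, 15.1 and 14.7 CPM in D6 GLI1 OE libraries 4, 12 and 16 against 47.9, 22.001 and 42.0 CPM in D6 control libraries 3, 11 and 15. The groups did not overlap, and the log2 fold change was -1.17 ± 0.40 (SE, edgeR adjusted p = 0.136).

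Hoxb3 had 9.10, 5.60 and 8.05 CPM in GLI1 OE against 19.0, 10.7 and 21.0 CPM in controls, again without overlap (log2 fold change -1.15 ± 0.46 SE, edgeR adjusted p = 0.215). Hoxb1 had 1.28, 1.47 and 0.647 CPM in GLI1 OE against 5.78, 2.33 and 3.18 CPM in controls (log2 fold change -1.73 ± 1.09 SE, edgeR adjusted p = 0.514). These 3 anterior HOXB genes were the members whose groups did not overlap (9.38%, against 13.8% of all genes that did not overlap in this direction). In Hoxb4 the groups overlapped through control library 11, with 3.68, 0.807 and 2.73 CPM in GLI1 OE against 9.56, 1.49 and 6.21 CPM in controls (log2 fold change -1.25 ± 0.85 SE, edgeR adjusted p = 0.555).

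Outside HOXB, the anterior gene Hoxa2 had 0.703, 1.42 and 0.786 CPM against 0.850, 1.49 and 0.934 CPM (log2 fold change -0.17 ± 0.56 SE). In HOXD, Hoxd9 had 6.62, 2.28 and 6.38 CPM against 8.63, 2.23 and 6.59 CPM, Hoxd4 had 6.20, 1.47 and 4.76 CPM against 6.76, 1.35 and 4.999 CPM, and Hoxd8 had 2.89, 1.52 and 3.10 CPM against 4.42, 1.30 and 3.36 CPM. In these 3 genes the difference between groups was smaller than that between library 12 or 11 and the others of its group.

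The low and high libraries came in pairs of adjacent number. No label gives these pairs, and they were found in these data. Deviations of the HOX members from their group means correlated at 0.642 to 0.806 within the D6 pairs. A fit that blocks on them can therefore give p-values that are too small. When GLI1 OE libraries 4, 12 and 16 were set against control libraries 3, 11 and 15, 14 members were lower in all 3 pairs (32.8% of all genes were) and 1, Hoxd1, was higher in all 3 (28.1% of all genes). All 9 tested HOXB members were among the 14, though Hoxb7 had 13 counts in each of libraries 16 and 15 and differed there only through scaling. With a replicate block for these pairs, and the D5 libraries left out, 5 members fell (9.22% of 14723 genes passed, and 4.22% were lower), and 8 had an unadjusted p under 0.05.

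All 5 are HOXB genes in that fit. Hoxb1 had a log2 fold change of -1.71 ± 0.41 (SE, edgeR adjusted p = 0.0480) and Hoxb2 one of -1.13 ± 0.21 (SE, edgeR adjusted p = 0.0220). Hoxb3 had -1.14 ± 0.22 (SE, edgeR adjusted p = 0.0252), Hoxb4 had -1.20 ± 0.21 (SE, edgeR adjusted p = 0.0176) and Hoxb6 had -1.23 ± 0.29 (SE, edgeR adjusted p = 0.0414). The block fitted with all 18 libraries called 0 members, as did the fit without D5 and without the block. The authors' deposited table for D6 lists 3 members with an adjusted p under 0.05, all lower (5.95% of its genes were), and these are Hoxb1 (log2 fold change -1.72, adjusted p = 0.00508), Hoxb2 (-1.16, adjusted p = 0.000786) and Hoxb3 (-1.14, adjusted p = 0.0019).

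**Figure D4:**
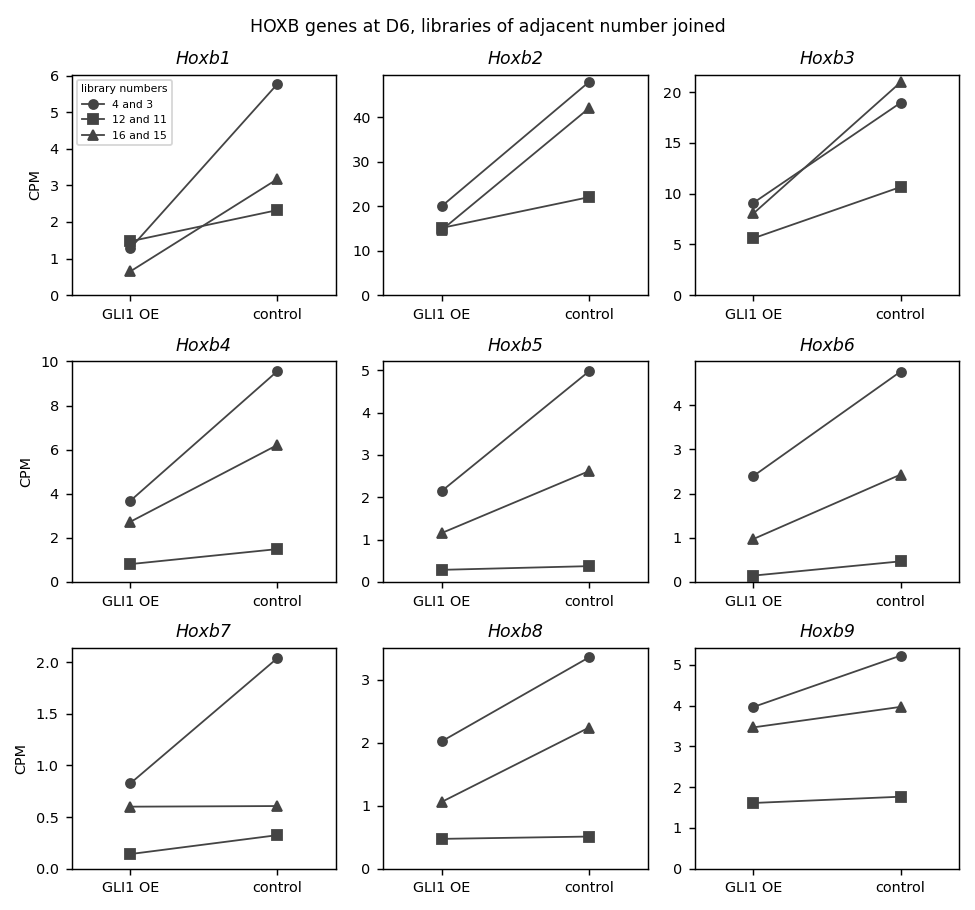
CPM of the 9 tested HOXB genes in D6 GLI1 OE (left) and D6 control libraries (right), with libraries of adjacent number joined by a line. Every line is lower at its GLI1 OE end than at its control end, in Hoxb7 by only 0.601 against 0.607 CPM for libraries 16 and 15.

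Markers of other cell types differed between the same D6 groups. Their counts are read against the 4.14% of all genes that passed (3.02% higher and 1.12% lower). Cardiomyocyte markers summed to 822 to 2698 CPM in GLI1 OE against 2571 to 6919 CPM in controls, with 0 of 9 called and a median log2 fold change of -1.29. Endoderm markers summed to 111 to 134 CPM in GLI1 OE against 13.1 to 16.2 CPM in controls, and 2 of 9 rose, Foxa2 and Alb. Blood markers summed to 118 to 252 CPM in GLI1 OE against 209 to 733 CPM in controls (0 of 9 called), and endothelial markers to 377 to 666 CPM against 236 to 598 CPM (1 of 8 rose). Paraxial mesoderm markers summed to 1.33 to 3.27 CPM in GLI1 OE against 2.74 to 5.99 CPM in controls, with Msgn1, Meox2 and Pax9 at 0 in GLI1 OE and Pax1, Myf5 and Myod1 at 0 in controls. Neural markers summed to 24.7 to 31.4 CPM in GLI1 OE against 20.7 to 28.4 CPM in controls (1 of 5 tested fell), limb and mesenchyme markers to 2016 to 3605 CPM against 3544 to 4850 CPM (1 of 10 rose and 1 fell), and pluripotency markers to 10.96 to 14.8 CPM against 25.5 to 38.1 CPM (0 of 4 tested called). The part of these markers in the HOX values was not tested.

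Of the genes upstream of the clusters, 2 of 16 passed at D6 (4.14% of all genes did). Dhrs3, which limits retinoic acid by reducing its precursor, had 23.3, 35.2 and 25.7 CPM in GLI1 OE against 2.64, 3.30 and 1.78 CPM in controls (log2 fold change 3.44 ± 0.26 SE, edgeR adjusted p = 6.09e-06). Cyp26b1, which degrades retinoic acid, had 0.331, 0.854 and 0.694 CPM in GLI1 OE against 2.68, 2.19 and 1.45 CPM in controls (log2 fold change -1.75 ± 0.42 SE, edgeR adjusted p = 0.0274). In both genes the groups did not overlap. Cdx2 did not pass (log2 fold change -0.38 ± 1.09 SE, edgeR adjusted p = 0.934). None of 9 TALE cofactors, 19 Polycomb genes, 11 Trithorax and demethylase genes, 3 non-coding transcripts and 14 flanking genes passed. The part of all these genes in the HOX values was not tested.

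Set against D5, GLI1 OE cells at D6 had 5 members called (15.6%, against 29.5% of all genes), and this comparison shares the D5 libraries with the control one above. Hoxb1 (log2 fold change -3.94, edgeR adjusted p = 0.0175) and Hoxb2 (-1.13, edgeR adjusted p = 0.0367) were among the 3 that fell, and Hoxa11 (3.91, edgeR adjusted p = 0.0416) and Hoxc5 (2.92, edgeR adjusted p = 0.0301) rose. In D6 controls over D5 these 4 genes had log2 fold changes of -2.21, 0.04, 4.24 and 3.49. The count was 13 without D5 library 3, 3 without D5 library 1, 2 without D5 library 2, 1 without D5 library 4, and 0 without GLI1 OE library 4 or 16. Later in the GLI1 OE series 1 member passed, lower, between D8 and D6 (3.12%, against 40.1% of all genes, 20.3% higher and 19.8% lower), and no member passed between D12 and D8 (0 of 32, against 33.5% of all genes, with 1 at an unadjusted p under 0.05, and Hoxc10 called without D8 GLI1 OE library 18).

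At D8, after the wash, no HOX gene differed past the threshold, nor did any other gene (0%). An unadjusted p under 0.05 was reached by 3 members, Hoxd12 and Hoxd13 among them, and DESeq2 and limma-voom called 0 members. Hoxd13 had 0.324 and 0.636 CPM in GLI1 OE against 0.531 and 6.06 CPM in controls, and the groups overlapped (log2 fold change -2.76 ± 1.11 SE, edgeR adjusted p = 0.799). Hoxd12 had 0 and 0.454 CPM against 0.575 and 3.18 CPM, without overlap (log2 fold change -3.01 ± 1.20 SE, edgeR adjusted p = 0.799).

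At D8, 2 members were lower without overlap, Hoxd12 among them (6.25%, against 15.2% of all genes). Median estimates were -0.15 for anterior, -0.42 for central and -1.49 for posterior genes, and 25 of 32 were below 0. Hoxb2 and Hoxb3, lower in every D6 pair, had 13.97 and 27.4 CPM and 5.74 and 13.3 CPM in D8 GLI1 OE against 15.2 and 24.9 CPM and 6.68 and 21.6 CPM in D8 controls. Libraries 14 and 13 were low and libraries 18 and 17 high in both genes. In both adjacent D8 pairs 21 of the 32 tested members were lower (28.9% of all genes were). Hoxb3, Hoxb4, Hoxb5, Hoxb6 and Hoxb7 were among the 21, Hoxb2 was not, and 1 member, Hoxb9, was higher in both (28.8%). At D12, 15 members were lower in both adjacent pairs (22% of all genes) and 3 were higher (23.2%). Deviations within the D12 pairs did not correlate positively. Being lower in every pair was thus not confined to D6.

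At D12 no member passed (0 of 32, with 0% of all genes), none had an unadjusted p under 0.05, and DESeq2 and limma-voom called 0. In 9 of the 12 tested posterior genes the levels of both GLI1 OE libraries were below those of both controls (16.4% of all genes were). In Hoxb9, Hoxc10 and Hoxd9 the groups overlapped. The genes share the same libraries, and some separations were small. Hoxd10 had 5.99 CPM in GLI1 OE library 20 against 6.10 CPM in control library 19. Hoxa10 had 2.73 and 2.01 CPM in GLI1 OE against 6.37 and 5.73 CPM in controls (log2 fold change -1.35 ± 1.20 SE, edgeR adjusted p = 0.971). Hoxd13 had 4.32 and 0.536 CPM in GLI1 OE against 8.84 and 7.64 CPM in controls (log2 fold change -1.78 ± 1.01 SE, edgeR adjusted p = 0.916). Hoxa9 had 1.65 and 1.07 CPM against 3.23 and 2.60 CPM (log2 fold change -1.10 ± 1.07 SE). In each of the 3 genes both GLI1 OE libraries were below both controls.

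In all, 12 members were lower without overlap at D12 (37.5%, against 16.4% of all genes), and 9 of them are posterior (Hoxa9, Hoxa10, Hoxa11, Hoxa13, Hoxc9, Hoxd10, Hoxd11, Hoxd12 and Hoxd13), beside Hoxa3, Hoxb1 and Hoxb7. Of the last 2, Hoxb1 rests on 2 counts in GLI1 OE and 4 in controls. Hoxb7 had 1.93 CPM in GLI1 OE library 10 against 1.97 CPM in control library 9. Hoxa2 and Hoxc8 were higher without overlap (6.25%, against 17.9% of all genes). Posterior members summed to 31.0 and 33.3 CPM in GLI1 OE against 55.3 and 44.3 CPM in controls, while anterior members summed to 40.4 and 51.1 CPM in GLI1 OE against 51.5 and 38.5 CPM in controls. The median estimate was -0.87 for posterior genes, 0.03 for central and 0.00 for anterior ones. Hoxd9 went against the other posterior HOXD genes, with 3.12 and 9.12 CPM in GLI1 OE against 5.05 and 4.30 CPM in controls.

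Cardiomyocyte markers summed to 5201 and 2493 CPM in D12 GLI1 OE against 4362 and 10140 CPM in D12 controls, and their part in the posterior values was not tested. The standard errors show the limit of the data: with 2 libraries a group and the spread shared over all days, that of a posterior gene was 0.96 to 1.70 on the log2 scale. The authors' deposited tables list 24 members at D8 and 25 at D12, and 0 in either had an adjusted p under 0.05. The D12 table gives Hoxa10 a log2 fold change of -1.37 (unadjusted p = 0.000963, adjusted p = 0.137).

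**Figure D5:**
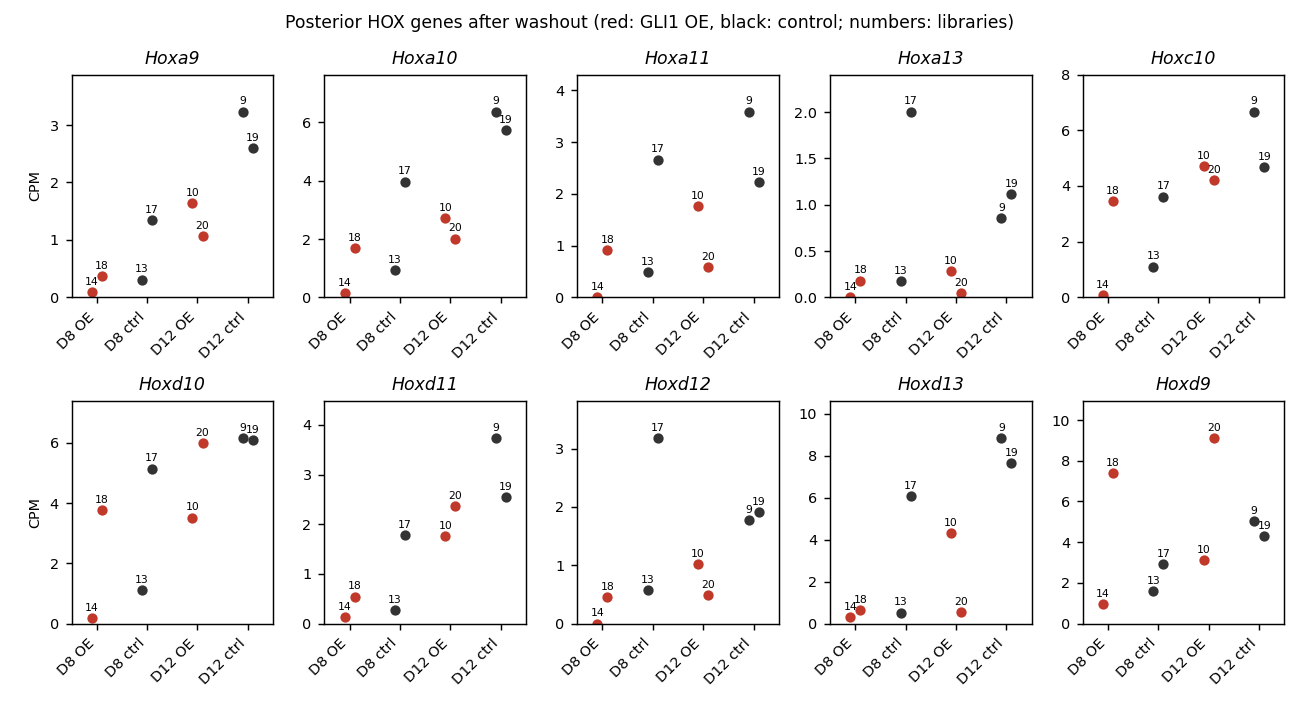
CPM of 10 posterior HOX genes in the D8 and D12 libraries (points, numbered), GLI1 OE in red to the left of its control in black. At D8 library 18 or 17 lies far above its partner in most genes, and at D12 both GLI1 OE points lie below both control points in Hoxa9, Hoxa10, Hoxa11, Hoxa13, Hoxd10, Hoxd11, Hoxd12 and Hoxd13.

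Whether the effect of the pulse changed with the day was tested as an interaction, and no member passed. The difference of the D8 and D6 effects had 0 of 32 members called (0.631% of all genes, 0.0672% higher and 0.564% lower), that of D12 and D6 had 0 (0.604%, of which 0.094% higher and 0.51% lower) and that of D12 and D8 had 0 (0%), with 0 members at an unadjusted p under 0.05 in each and 0 called by DESeq2 and limma-voom. With the replicate block and D5 left out, 0 members were called in each, against 1.47% of all genes for D8 minus D6 and 1.39% for D12 minus D6. For HOXB all 9 estimates were above 0 in the D8 minus D6 and in the D12 minus D6 effect. Both differences subtract the D6 effect for which HOXB stood out as lowest, so these signs were largely set in advance. Hoxb2 had 1.21 (edgeR adjusted p = 0.779) and 1.23 (edgeR adjusted p = 0.616) on the log2 scale. The HOXB effects at D6 are thus not shown to differ from those at D8 and D12.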

How the data were processed

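PolyA RNA was sequenced from 18 libraries in 7 groups. The authors deposited raw counts by gene symbol, TPM values for the 4 D5 controls, and tables of their comparisons, which per the file headers hold log2 fold changes, mean log2 CPM, p-values and adjusted p-values and, at D6, a mean scaled-count signal and a test statistic (a score). The authors' deposited D6 table has the column names of DESeq2 and those of D8 and D12 the names of edgeR. Per the labels, sequencing was single-end and stranded with 50-base reads. The aligner, the counting method and the build were not given in the sources used here.

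The tests used edgeR 4.0.16 (R 4.3.3) on all 18 libraries: filterByExpr with a minimum count of 10, trimmed mean of M-values (TMM) scaling, a robust quasi-likelihood fit with 1 coefficient per group, and F tests adjusted by Benjamini-Hochberg over 14892 genes and called under 0.05. CPM values are counts divided by TMM-scaled library size, tests of interactions use the contrast itself, and intervals are exact at 95%. The SE printed with a log2 fold change was worked back from the test. It is the size of the log2 fold change divided by the square root of the F statistic, and so is approximate, above all at low counts. The model was tested on simulated data. DESeq2 1.42.0, limma-voom (limma 3.58.1), RLE and upper-quartile scaling, no filter, each library left out and a replicate block were alternatives. Count columns carry library numbers, not replicate numbers, and no label says that adjacent numbers share a culture. The pairing comes from the data: across 14892 genes, deviations from the group means correlated at 0.617, 0.445 and 0.52 within the 3 adjacent D6 pairs, at 0.491 within the D8 pairs and at -0.231 within the D12 pairs. Per gene, chi-square was 6.85 between D5 libraries 1 and 2, 50.5 to 93.7 in other D5 pairs and 14.5 to 122 within the other groups. D5 libraries 1 and 2 were thus the closest pair of any group, and whether they were separate cultures is not stated. All 4 were kept as separate libraries, so p-values against D5 may be too small.

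The members and the gene lists were chosen with earlier results of these data known. By the rule for naming, values in every library were given for the 3 members of each cluster with the highest mean CPM and for members called in a comparison of GLI1 OE with control or in an interaction. Other members and genes were named after their values were seen. Some genes are not reported or plotted here, and counts, sums and medians include them. Loci and start-site windows came from RefSeq tables of GRCm38.p6.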

Additional observations from a re-analysis of the deposited data

Results flagged for a closer look

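In the 4 D5 controls, library 3 lay further above the other libraries than Dixon's 95% limit for 11 of the 32 tested members. That limit assumes normally distributed values, and the members share the same libraries, so the count is a description without a chance rate. Its levels were 9.2 CPM for Hoxb4, 5.51 CPM for Hoxd9, 3.98 CPM for Hoxd4, 2.32 CPM for Hoxb6, 1.99 CPM for Hoxd3, 1.58 CPM for Hoxb8, 1.53 CPM for Hoxc8, 0.539 CPM for Hoxc6, 0.166 CPM for Hoxa9, 0.166 CPM for Hoxa11 and 0.0415 CPM for Hoxd11. Hoxa9, Hoxa11 and Hoxd11 had 0 counts in the other D5 libraries, so their values rest on few counts. With 0 in all other libraries, any count in library 3 passes the limit. Hoxd3 is the anterior gene among the 11, and each of the 4 clusters is represented.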

How the results depend on the processing

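The number of HOX genes called stayed at 0 in all alternatives for GLI1 OE over control at D8 and D12 and for the D8 minus D6 and D12 minus D8 effects. At D6 the count for GLI1 OE over control was 5 with the replicate block and D5 left out, 6 when the D12 numbers were also crossed, and 0 with the replicate block on all 18 libraries; the fits without D5 and the crossed pairing were added after seeing the data. The crossed pairing gave 1 (Hoxb3) for the D12 minus D6 effect. A block was not run between days, because adjacent numbers exist only within a day.

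For D6 over D5 controls the count was 0 with only the 2 groups fitted and 3 with limma-voom, and 0 to 15 when single libraries were left out. For D8 over D6 controls it was 4 with only the 2 groups and 4 with DESeq2, and 1 to 2 with libraries left out. For D12 over D8 controls it was 2 with no filter, 0 with limma-voom, 2 with DESeq2 and 0 to 1 with libraries left out, and for D12 over D5 controls it was 11 to 25. For D6 GLI1 OE over D5 it was 3 with no filter, 0 with only the 2 groups, 2 with limma-voom, 10 with DESeq2 and 0 to 13 with libraries left out. For D8 over D6 GLI1 OE it was 2 with only the 2 groups, 3 without D5 and 2 with DESeq2, and for D12 over D8 GLI1 OE it was 0 to 1. The causes were not tested.

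Directions that changed belong to estimates that passed no test. In the D8 comparison of GLI1 OE with control, limma-voom gave log2 values of -0.57 for Hoxc8, -0.44 for Hoxd4 and -0.42 for Hoxd8, and the 3 block fits gave -0.28, -0.16 and -0.12 for Hoxd4 and -0.35, -0.29 and -0.26 for Hoxd8. With single libraries left out, log2 values at D6 ran from -1.25 to 0.18 for Hoxa10, -0.56 to 0.12 for Hoxa2, -0.79 to 0.34 for Hoxc6, -0.58 to 0.20 for Hoxd9, -0.505 to 0.38 for Hoxd4 and -0.64 to 0.095 for Hoxd8. At D8 they ran from -0.48 to 0.23 for Hoxa2, -0.52 to 0.44 for Hoxb2, -1.30 to 0.50 for Hoxb3, -2.40 to 0.98 for Hoxb4, -4.59 to 0.67 for Hoxc10, -7.09 to 4.26 for Hoxc8, -2.32 to 0.77 for Hoxc6, -1.21 to 1.69 for Hoxd9, -2.745 to 1.54 for Hoxd4 and -2.04 to 0.85 for Hoxd8. At D12 they ran from -0.15 to 0.25 for Hoxb2, -0.16 to 0.59 for Hoxb3, -1.095 to 0.035 for Hoxb4, -0.66 to 0.20 for Hoxc6, -0.57 to 0.97 for Hoxd9 and -0.16 to 0.51 for Hoxd4. Scaling by library totals in place of TMM moved group means by -8.74% to 7.3%. A group left with 1 library by these omissions is assumed to vary like the others. Members with a few counts per library, among them most posterior genes at D5, are limited by depth.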

Other observations

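For Hoxb3 the deposited TPM values and the deposited counts did not move together at D5. Between D5 replicates 4 and 3 of the TPM table its ratio was 0.989 (43.5 and 44.0 TPM), and between the D5 count libraries numbered 4 and 3 its CPM ratio was 0.424 (198 and 475 counts). The numbers of the 2 tables are taken to name the same samples, which the labels do not state. For other members the ratios were close, at 0.97 in TPM and 0.979 in CPM for Hoxb2, 2.49 and 2.51 for Hoxb1, 0.283 and 0.289 for Hoxb4 and 0.539 and 0.537 for Hoxd1. Hoxb3 overlaps Hoxb4 over 3372 bases (chr11:96318267-96321638, GRCm38.p6), and whether the overlap plays a part was not tested.

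Hoxd1 was the tested member that was higher in GLI1 OE in all 3 adjacent D6 pairs. It had 2.03, 0.902 and 1.39 CPM in GLI1 OE libraries 4, 12 and 16 against 0.935, 0.791 and 0.747 CPM in control libraries 3, 11 and 15, and it did not pass (log2 fold change 0.80 ± 0.95 SE, edgeR adjusted p = 0.787). Hoxc13, below the filter, had 0.319 and 0.363 CPM in D5 libraries 1 and 2 and 0.0415 and 0.0422 CPM in libraries 3 and 4.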
